A study of Rattus norvegicus with 110 samples.

Results

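Ccl2, Il1b, Spp1, Cd68 and Lcn2 were followed as 5 inflammation and macrophage genes in rat liver and kidney. They were taken by their Ensembl identifiers (ENSRNOG00000007159, ENSRNOG00000004649, ENSRNOG00000043451, ENSRNOG00000037563 and ENSRNOG00000013973), the rule itself uses no measured value, and they are 5 of the 31998 genes in each table. All 5 passed the filter on low counts, among 19004 genes tested in liver and 18374 in kidney.

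The animals were F2 male Sprague Dawley rats, an outbred strain, dosed by oral gavage with carbon tetrachloride (CCl4) in olive oil at 0.5 mL/kg, 3 times per week. CCl4 is metabolised in hepatocytes to radicals that kill the cell. Males received olive oil alone (vehicle), 8% CCl4 (low dose) or 50% CCl4 (high dose). Organs were sampled on day 39, the day after the last dose. In cohort A neither F0 grandsire nor F1 sire had been treated, in cohort B the F1 sire alone had received CCl4, in cohort C the F0 grandsire alone and in cohort D both, always at 50% and ending before mating. All control ancestors received olive oil, and the labels give no ages. Each of the 12 cohort and dose combinations held 7 livers, except cohort C vehicle with 6, for 83 livers in all, and the kidneys of the 27 vehicle males were also sequenced. Males of 1 cohort were often littermates (34 litters from 17 F0 sires), so p-values measure the spread between animals that are not all independent.

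Tissue macrophages clear the debris of dying cells and, with incoming monocytes and neutrophils, drive the inflammation that precedes scarring. Ccl2 is the chemokine that recruits monocytes through the receptor Ccr2, and Il1b is the inflammasome-processed cytokine of activated myeloid cells. Spp1 (osteopontin) is a secreted matrix phosphoprotein made by activated macrophages, biliary cells and renal tubules, Cd68 is a lysosomal glycoprotein abundant in macrophages, and Lcn2 (lipocalin 2) is a siderophore-binding protein made by injured hepatocytes, neutrophils and renal tubules.

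The sequences below are the windows from 250 bases before to 50 bases after the gene start, from RefSeq on assembly GRCr8, written 5′ to 3′ on the gene's strand. Of the 5 genes, 4 matched an entry and Ccl2 did not. Lcn2 and Spp1 are shown because they rose most at high dose, and Il1b because it passed no dose comparison. The Lcn2 window lies at chr3:36081731-36082030, the Spp1 window at chr14:5619755-5620054 and the Il1b window at chr3:137036532-137036831, all on the minus strand. Capitals mark matches on either strand to the NF-kappaB consensus, the AP-1 motif TGANTCA, the C/EBP motif TTNNGNAA or TATAAA, and no matches overlap within these windows.
Lcn2: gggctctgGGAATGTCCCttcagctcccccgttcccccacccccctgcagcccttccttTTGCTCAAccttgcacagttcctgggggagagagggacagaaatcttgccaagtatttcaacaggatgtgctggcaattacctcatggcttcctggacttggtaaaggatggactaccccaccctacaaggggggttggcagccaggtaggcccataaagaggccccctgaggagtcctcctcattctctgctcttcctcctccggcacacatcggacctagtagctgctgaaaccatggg
Spp1: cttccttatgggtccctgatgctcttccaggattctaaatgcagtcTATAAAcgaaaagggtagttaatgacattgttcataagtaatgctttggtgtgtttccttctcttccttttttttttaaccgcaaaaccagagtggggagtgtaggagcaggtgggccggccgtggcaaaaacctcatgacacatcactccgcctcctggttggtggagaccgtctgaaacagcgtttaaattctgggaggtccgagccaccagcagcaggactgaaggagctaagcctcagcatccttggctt
Il1b: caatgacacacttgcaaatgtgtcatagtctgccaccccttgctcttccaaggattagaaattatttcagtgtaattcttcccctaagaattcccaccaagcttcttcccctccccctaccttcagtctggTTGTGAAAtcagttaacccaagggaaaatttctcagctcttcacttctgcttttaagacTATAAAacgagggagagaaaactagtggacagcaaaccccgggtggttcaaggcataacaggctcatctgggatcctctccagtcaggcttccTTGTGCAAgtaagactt

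Lcn2 held 1 NF-kappaB match, beginning at position -242 relative to the gene start (first base 1, the base before it -1), and 1 C/EBP match at -191, both on the opposite strand. Spp1 held 1 TATAAA, at -204, and none of the other 3 motifs. Il1b held 2 C/EBP matches, at -119 and 34, and 1 TATAAA at -60. The Cd68 window, at chr10:54882392-54882691 on the minus strand, held 2 AP-1 and 3 C/EBP matches. Of 33469 windows of 300 bases, 7.51% held the NF-kappaB consensus, 7.33% the AP-1 motif, 41.3% the C/EBP motif and 14.2% TATAAA, so the C/EBP matches in 3 of the 4 windows are a common feature of promoters. These matches describe letters and are not measured binding sites.

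Library totals ran from 31638559.0 to 51343589.0 estimated counts in liver and from 21961746.0 to 35055218.0 in kidney. Levels within an organ are given as counts per 1000000 counts of the library (CPM) scaled by TMM, a factor that aligns most genes between libraries, and levels between genes or organs as transcripts per 1000000 (TPM), which also divide by transcript length. TMM factors were 0.718 to 0.913 in vehicle livers and 0.947 to 2.03 in high-dose livers. With library totals in place of TMM, the median log2 fold change of all genes moved up by 0.11 to 0.20 at low dose, 0.53 to 0.68 at high dose and 0.34 to 0.53 between the doses. The share of calls that were higher at high dose than in vehicle then moved from 66.4 to 73.4% up to 86.6 to 93.5%, and between the doses from 62.1 to 75.7% up to 88.5 to 92.7%. At low dose in cohort C it moved from 75.1% to 86.4%. The liver library of cohort D high replicate 7 stood apart most, with a median correlation of 0.939 with its group against a median of 0.979 over all 83 livers. Next came cohort B high replicate 7 at 0.956, cohort C vehicle replicate 4 at 0.958 and cohort C high replicate 4 at 0.963. Results that these libraries decide are given with and without them below where such a fit was run.

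In vehicle livers Cd68 was the most abundant of the 5, at 22.4 ± 4.22 TPM (SD, n = 27). Il1b followed at 2.78 ± 0.935, Lcn2 at 2.30 ± 1.20, Spp1 at 1.78 ± 0.882 and Ccl2 at 0.966 ± 0.594 TPM. Each neighbouring pair below Cd68 overlapped in its range over animals. In high-dose livers the order of the means was Lcn2 at 198 ± 231 TPM, Spp1 at 111 ± 133, Cd68 at 79.2 ± 26.4, Ccl2 at 16.5 ± 37.1 and Il1b at 4.45 ± 2.46 TPM (n = 28). A few livers carry these means, since by the median Lcn2 (112 TPM) was followed by Cd68 (74.2) and then Spp1 (63.2). The order of the means also differed by cohort, Spp1 (60.4) being below Cd68 (68.0) in cohort C and Spp1 (174) above Lcn2 (124) in cohort D. The ranges of neighbours again overlapped. Over the 28 high-dose livers of all cohorts the coefficient of variation in CPM was 170% for Ccl2, 108% for Lcn2 and 94.4% for Spp1, against 47.1% for Il1b and 23.9% for Cd68. The Ccl2 value rests largely on cohort D high replicate 7, at 44.3 CPM where the next highest liver had 11.5. It was not recomputed without that liver, so the order of Ccl2, Lcn2 and Spp1 is not settled.

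**Figure D1:**
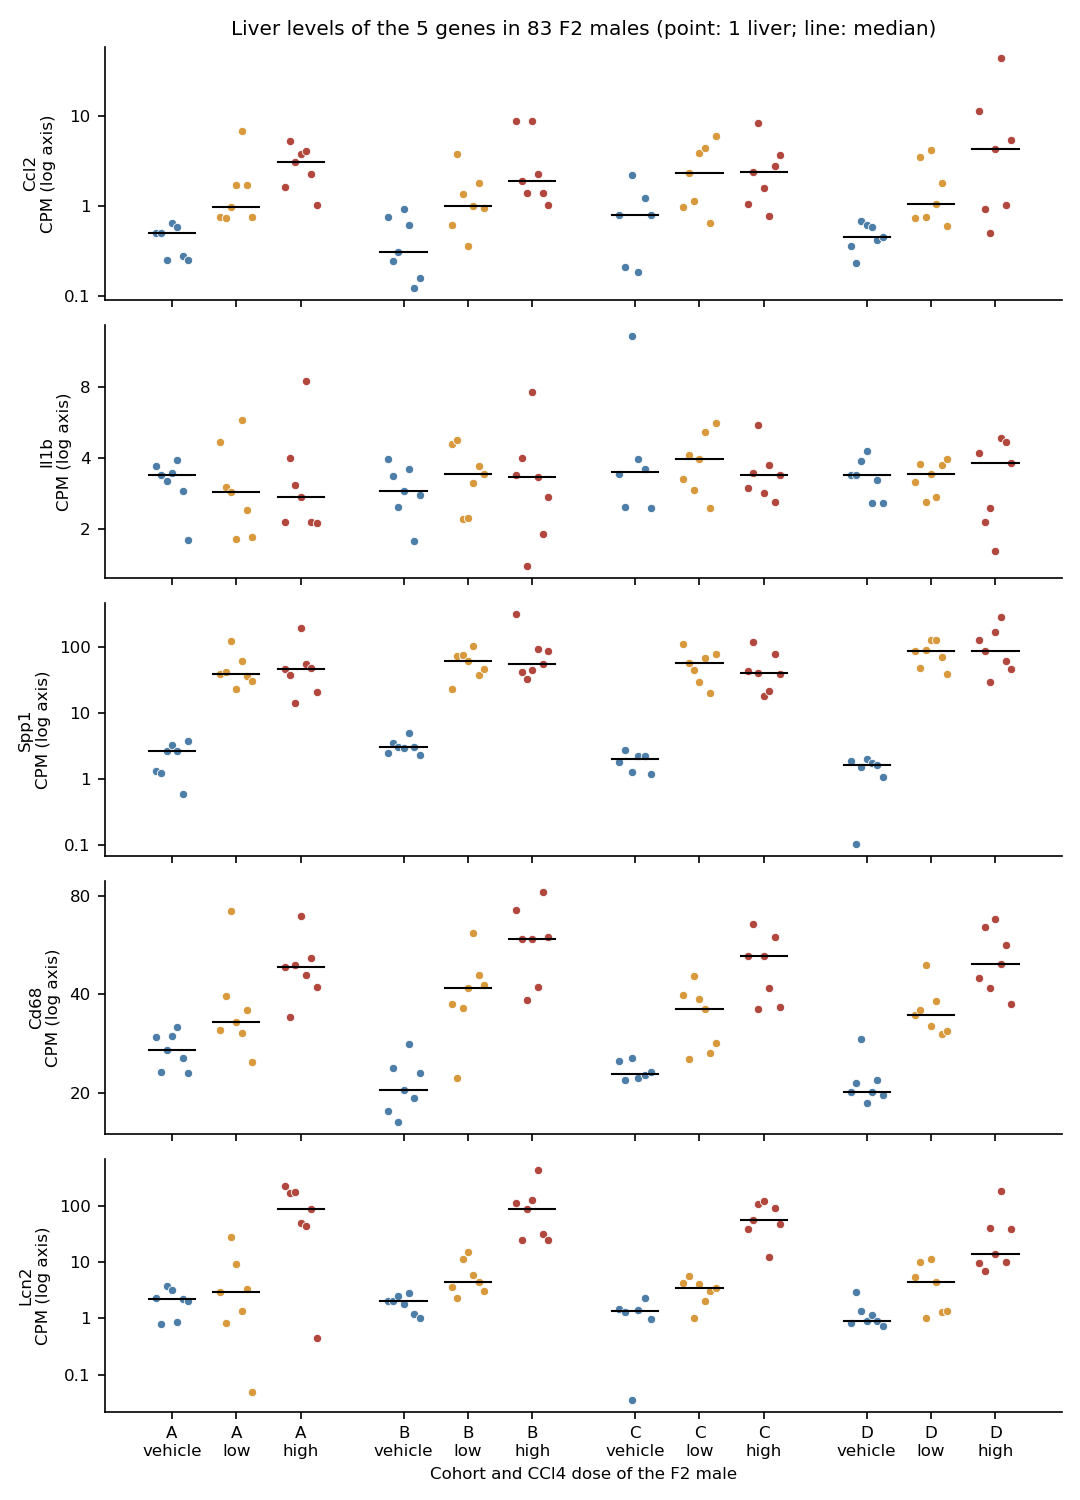
Level of each of the 5 genes in every liver (points, CPM with TMM on a log axis) in the 12 groups of cohort and dose, with a line at each group's median. Spp1 was apart from vehicle at both doses in all 4 cohorts, Lcn2 rose mostly at high dose, Cd68 moved by smaller folds and Il1b stayed level.

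The first question was how each gene answered CCl4 within each ancestry. A dose comparison was called at an adjusted p under 0.1 (edgeR quasi-likelihood test, Benjamini-Hochberg over all genes tested) and an absolute log2 fold change over 1. At high dose against vehicle, 3 of the 5 genes were called in cohort A (Ccl2, Spp1 and Lcn2), where 21.7% of all genes tested were called, and 4 of 5 in each other cohort (these and Cd68), with a background of 26.4%, 21.7% and 22.6% in B, C and D. At low dose, 2 were called in cohort A (Ccl2 and Spp1, background 3.7%), 1 in cohort B (Spp1, 3.65%), 1 in cohort C (Spp1, 4.46%) and 2 in cohort D (Ccl2 and Spp1, 4.25%). Every one of these calls was higher than vehicle. The median log2 fold change of the 5 genes at high dose was 2.81, 3.08, 1.71 and 4.34 in cohorts A to D, against -0.02 to 0.06 over all genes tested. The cohort D median is the value of Ccl2, which was 3.05 without high replicate 7 of that cohort.

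Spp1, the osteopontin gene, was higher than vehicle at both doses in every cohort. In cohort A its CPM was 0.588 to 3.67 (median 2.58) in vehicle livers, 22.8 to 120.3 (38.5) at low dose and 14.0 to 190 (46.0) at high dose. In cohort B it was 2.28 to 4.92 (2.99), 22.4 to 103 (61.2) and 32.6 to 306 (53.8). The lowest treated liver of each cohort lay well above its highest vehicle liver.

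In cohort C, Spp1 was 1.15 to 2.67 CPM (median 2.00) in vehicle, 19.7 to 108 (56.5) at low dose and 17.6 to 116 (40.2) at high dose. In cohort D it was 0.101 to 1.95 (1.58), 38.2 to 125 (85.7) and 29.1 to 284 (84.4). No treated liver of any cohort overlapped its vehicle group. The log2 fold change at low dose was 4.53 ± 0.54 (SE), 4.24 ± 0.52, 4.92 ± 0.59 and 5.88 ± 0.57 in cohorts A to D (edgeR adjusted p between 2.1e-12 and 8.7e-09). At high dose it was 4.75 ± 0.54, 4.90 ± 0.54, 4.73 ± 0.58 and 6.34 ± 0.59 (edgeR adjusted p between 2.1e-14 and 5.4e-10). Without cohort A high replicate 5, at 190 CPM, the cohort A value was 4.09, and without cohort B high replicate 1 the cohort B value was 4.22.

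The 2 doses did not pass the test against each other for Spp1. High against low dose gave a log2 fold change of 0.23 ± 0.45, 0.65 ± 0.45, -0.19 ± 0.45 and 0.46 ± 0.45 in cohorts A to D, none of them called (edgeR adjusted p between 0.27 and 0.80). Scaled by library totals, the difference was called in cohort B (1.21, adjusted p 0.036) and cohort D (1.09, adjusted p 0.066), and without date 2 it was called in cohort B (1.08, adjusted p 0.096). Leaving out 1 liver moved each difference to near 0 or past it. The cohort B difference was -0.01 without high replicate 1, the liver at 306 CPM, and the cohort D difference 0.06 without high replicate 7. In cohort A it was -0.41 without high replicate 5 and 0.67 without low replicate 4, and in cohort C -0.53 without high replicate 2 and 0.04 without low replicate 1.

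Lcn2, the lipocalin of injured hepatocytes, rose at high dose in all 4 cohorts. In cohort A it was 0.80 to 3.78 CPM (median 2.23) in vehicle, 0.0480 to 28.3 (2.97) at low dose and 0.440 to 229 (87.9) at high dose. In cohort B it was 1.02 to 2.85 (2.04), 2.32 to 15.0 (4.48) and 24.3 to 429 (88.6). Vehicle and low-dose livers overlapped in both cohorts, and only 1 high-dose liver, in cohort A, fell within the vehicle range or below it.

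In cohort C, Lcn2 was 0.0349 to 2.29 CPM (median 1.35) in vehicle, 1.01 to 5.77 (3.41) at low dose and 12.6 to 120 (55.9) at high dose. In cohort D it was 0.742 to 2.93 (0.915), 1.03 to 11.3 (4.52) and 6.98 to 185 (14.1). High-dose and vehicle livers did not overlap in cohorts B, C and D. The log2 fold change at high dose was 5.63 ± 0.84, 5.97 ± 0.85, 5.76 ± 0.92 and 5.11 ± 0.83 in cohorts A to D (edgeR adjusted p between 1.6e-08 and 5.7e-07), or 34.6- to 62.7-fold. Without high replicate 7 of cohort B, at 429 CPM, the cohort B value was 5.19, and without high replicate 7 of cohort D, at 185 CPM, the cohort D value was 3.99.

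At low dose the Lcn2 log2 fold change was 1.60 ± 0.73, 1.76 ± 0.74, 1.42 ± 0.81 and 2.00 ± 0.77, with no call in any cohort (edgeR adjusted p between 0.13 and 0.29). The low-dose mean of cohort A rested on replicate 4 at 28.3 CPM, without which its value was 0.41. The cohort D value was called without low replicate 10 or without vehicle replicate 2, its adjusted p then being as low as 0.091, and also by library totals (2.21, adjusted p 0.082), by DESeq2 (1.97, adjusted p 0.067) and with litter as a replicate block (1.80, adjusted p 0.031). With that block Lcn2 was called in cohort B too (1.61, adjusted p 0.049). High against low dose was called for Lcn2 in all 4 cohorts, with log2 fold changes of 4.03 ± 0.77, 4.21 ± 0.77, 4.34 ± 0.78 and 3.12 ± 0.74. It was 5.26 in cohort A without low replicate 4, 3.45 in cohort B without high replicate 7 and 2.01 in cohort D without high replicate 7 (adjusted p 0.034), still called. With TMM and all livers, Spp1 passed the test at low dose and not between the doses, while Lcn2 passed it between the doses and not at low dose. That contrast between the 2 genes was not itself tested.

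Ccl2, the monocyte chemokine, rose with wide spread between animals. In cohort A it was 0.250 to 0.646 CPM (median 0.499) in vehicle, 0.739 to 6.94 (0.971) at low dose and 1.05 to 5.27 (3.14) at high dose, with no overlap between vehicle and either dose. In cohort B it was 0.122 to 0.924 (0.306), 0.362 to 3.79 (1.02) and 1.02 to 8.94 (1.90). Here the low dose overlapped vehicle and the high dose did not.

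In cohort C, Ccl2 was 0.187 to 2.24 CPM (median 0.797) in vehicle, 0.648 to 5.99 (2.33) at low dose and 0.774 to 8.44 (2.41) at high dose. In cohort D it was 0.236 to 0.685 (0.460), 0.601 to 4.22 (1.07) and 0.498 to 44.3 (4.31). Both doses overlapped vehicle in both cohorts. At high dose the log2 fold change was 2.81 ± 0.70, 3.08 ± 0.70, 1.71 ± 0.69 and 4.34 ± 0.72 in cohorts A to D, called in all 4 (edgeR adjusted p between 9.6e-07 and 0.039). The cohort D value was 3.05 without high replicate 7, the liver at 44.3 CPM. The cohort C call was lost without high replicate 4 (1.18, adjusted p 0.17), without date 1 (1.67, adjusted p 0.13) or date 4 (1.75, adjusted p 0.12), and with litter as a replicate block (1.26, adjusted p 0.15).

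At low dose the Ccl2 log2 fold change was 2.18 ± 0.69, 1.70 ± 0.69, 1.62 ± 0.69 and 1.92 ± 0.69, called in cohorts A (edgeR adjusted p 0.053) and D (0.092). The cohort A call was lost without low replicate 7, at 6.94 CPM (1.37, adjusted p 0.42), without vehicle replicate 9 or 10, and with the litter block (1.73, adjusted p 0.16). The cohort D call was lost on leaving out low replicate 2, 5 or 9 or any 1 of the 7 vehicle livers, and the litter block added a cohort B call (2.03, adjusted p 0.038). With all livers kept, the cohort D call was also lost with DESeq2's size factors (1.89, adjusted p 0.11), no filter (1.90, adjusted p 0.14) or length offsets (1.87, adjusted p 0.11), and without date 1, 2 or 4. The cohort A call was lost without any 1 of the 4 dates (1.43 to 2.54, adjusted p between 0.10 and 0.33), and DESeq2 added a cohort C call (1.60, adjusted p 0.099). High against low dose was called for Ccl2 in cohorts B (1.38 ± 0.63, edgeR adjusted p 0.080) and D (2.42 ± 0.64, adjusted p 0.0035) and not in A (0.63 ± 0.62) or C (0.10 ± 0.62).

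Without cohort D high replicate 7 the cohort D difference between doses was 1.15 (adjusted p 0.18). The cohort B difference lost its call with the litter block (0.85, adjusted p 0.26), without date 2 (0.95, adjusted p 0.36) and on leaving out high replicate 1 or 5 or low replicate 1, 4, 5, 7 or 10, and without cohort A low replicate 7 a cohort A difference was called (1.44, adjusted p 0.092). In all, high against low dose called 1 of the 5 genes in cohort A (Lcn2, background 11.9%), 2 in cohort B (Ccl2 and Lcn2, 16.5%), 1 in cohort C (Lcn2, 12.5%) and 2 in cohort D (Ccl2 and Lcn2, 11.2%).

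Cd68, the macrophage lysosomal gene, moved by smaller folds than Spp1 or Lcn2. Its CPM in cohort A was 23.0 to 31.8 (median 27.1) in vehicle, 24.9 to 71.7 (32.9) at low dose and 34.2 to 69.6 (48.5) at high dose. In cohort B it was 16.2 to 28.2 (20.3), 22.1 to 61.5 (41.8) and 38.3 to 82.0 (59.1). High-dose livers lay above all vehicle livers, and low-dose livers overlapped them.

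In cohort C, Cd68 was 21.9 to 25.6 CPM (median 22.9) in vehicle, 25.3 to 45.5 (36.2) at low dose and 36.1 to 65.9 (52.2) at high dose. In cohort D it was 18.6 to 29.3 (20.2), 30.2 to 49.3 (34.6) and 37.4 to 67.9 (49.7). In cohort D neither dose overlapped vehicle. The log2 fold change at high dose was 0.84 ± 0.17 in cohort A, 1.47 ± 0.18 in B, 1.07 ± 0.18 in C and 1.26 ± 0.17 in D, with adjusted p (edgeR) between 8.8e-11 and 4.3e-05. Cohort A missed the call by size alone, and by library totals it was 1.55 and called. Without date 1 the cohort C value was 0.97 and fell short of the size threshold.

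At low dose Cd68 gave 0.49 ± 0.17, 0.95 ± 0.17, 0.55 ± 0.18 and 0.73 ± 0.17, with adjusted p (edgeR) between 6.8e-05 and 0.098 and every size under 1. The cohort B value passed the size threshold without low replicate 2 or vehicle replicate 7 (up to 1.06) and by library totals (1.07). Without cohort A low replicate 4, the liver at 71.7 CPM, the cohort A value was 0.23. High against low dose gave 0.36 to 0.53, with adjusted p (edgeR) between 0.014 and 0.12, and no call. By library totals it was called in cohort B (1.05, adjusted p 1.4e-05), and without cohort A low replicate 4 the cohort A value was 0.65 (adjusted p 0.0018). In whole liver, more macrophages and more Cd68 RNA per macrophage cannot be told apart, and the same holds for the other 4 genes and their source cells.

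Il1b, the inflammasome cytokine, passed no dose comparison. In cohort A it was 1.79 to 3.92 CPM (median 3.4) in vehicle, 1.82 to 5.80 (2.86) at low dose and 2.13 to 8.47 (2.74) at high dose. In cohort B it was 1.78 to 3.97 (2.90), 2.21 to 4.77 (3.42) and 1.39 to 7.64 (3.31). The groups overlapped throughout.

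In cohort C, Il1b was 2.45 to 13.1 CPM (median 3.5) in vehicle, 2.46 to 5.63 (3.95) at low dose and 2.61 to 5.55 (3.37) at high dose. In cohort D it was 2.57 to 4.30 (3.4), 2.59 to 3.95 (3.42) and 1.61 to 4.88 (3.81). The highest value of all 83 livers, 13.1 CPM, belonged to a vehicle male, cohort C replicate 4. The log2 fold change at high dose was 0.14 ± 0.30, 0.23 ± 0.30, -0.46 ± 0.31 and 0.03 ± 0.30 (edgeR adjusted p between 0.23 and 0.95), and without that vehicle male the cohort C value was 0.14.

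The level of Il1b depends on the scale. Scaled by library totals, which raised the median of all genes too, its high-dose log2 fold change was 0.81 (adjusted p 0.026), 0.93 (0.011), 0.12 (0.79) and 0.70 (0.055) in cohorts A to D, each under the size threshold. Relative to most genes Il1b did not pass the test in any cohort, and relative to the library total it was higher at high dose in 3 cohorts. The cohort C value by library totals keeps the vehicle male at 13.1 CPM, replicate 4, and was not refitted without it. An exception for cohort C is therefore not shown.

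**Figure D2:**
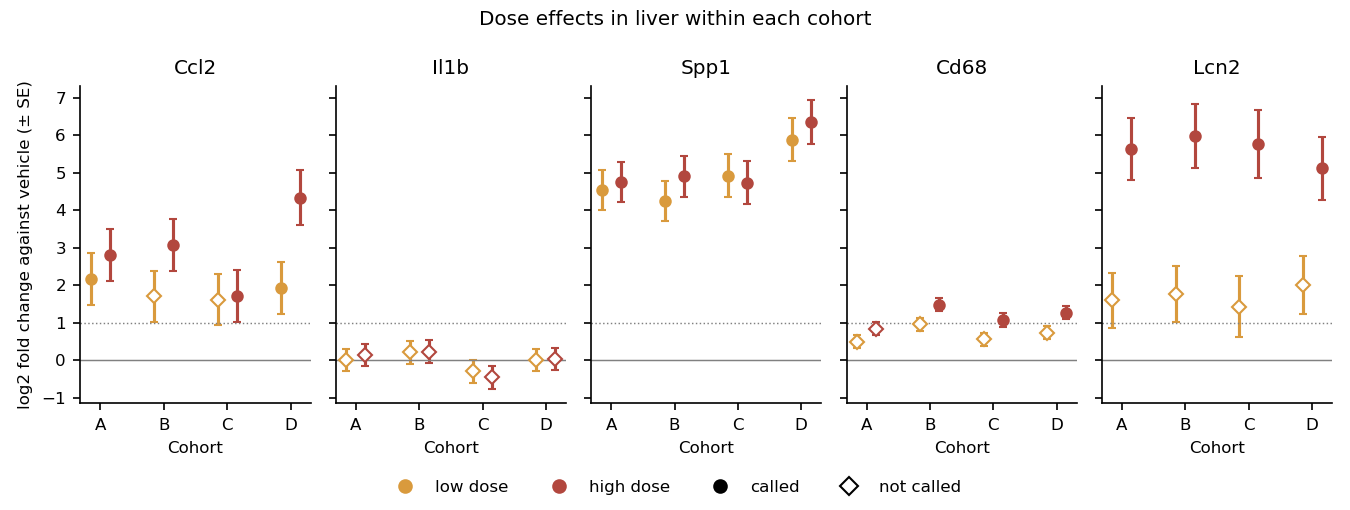
Log2 fold change (edgeR, ± SE) of the 5 genes against vehicle in each cohort at low and at high dose, with filled symbols for called comparisons, open diamonds for those not called and a dotted line at the size threshold of 1. Spp1 sat above 4 at both doses, Lcn2 was between 1.42 and 2.00 at low dose and above 5 at high dose, and Il1b stayed within 0.5 of 0.

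Whether the rise differed between ancestries was tested by comparing the dose effects of cohorts B, C and D with that of cohort A. None of the 5 genes was called at low dose, where 0% of genes tested were called, nor at high dose, where 0% were called (edgeR, adjusted p under 0.1). At an unadjusted p under 0.05 the test gave 916 genes at low dose and 1542 at high dose, and a DESeq2 likelihood ratio test called 0 and 1 gene, none of the 5. The unadjusted p at high dose was 0.061 for Ccl2, 0.069 for Spp1, 0.072 for Cd68, 0.39 for Il1b and 0.87 for Lcn2 (edgeR adjusted p 0.63, 0.65, 0.65, 0.83 and 0.97). The single differences with the smallest unadjusted p values were those of Cd68 in cohort B minus cohort A, 0.63 ± 0.24 (p 0.012, edgeR adjusted p 0.65), and Spp1 in cohort D minus cohort A, 1.59 ± 0.69 (p 0.024, edgeR adjusted p 0.56). So the cohort A miss for Cd68 and the larger Spp1 rise in cohort D were not shown to differ from the other cohorts.

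The F0 and F1 effects were fitted over all 83 livers with the dose as a covariate, and called at an adjusted p under 0.1. Lcn2 was the only one of the 5 called for F0 treatment, lower in grandsons of treated males, where 8.93% of genes tested were called. For F1 treatment none was called, against 0.2% of genes tested, and 38 genes in all passed. Ccl2 and Lcn2 are in the study's own list of F0 genes, which was drawn from these samples, so their values here are not independent evidence of it.

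Lcn2 was 0.0480 to 429 CPM (median 3.42) in the 42 livers without a treated grandsire and 0.0349 to 185 (median 4.01) in the 41 with one, 2 ranges that mix the doses. Adjusted for dose, the log2 difference was -0.80 ± 0.29 (edgeR adjusted p 0.082). Within the 4 necropsy dates it was -0.40, -1.54, -0.57 and 0.32, so 1 date went the other way. These are F0 coefficients of a linear fit of log2 CPM (pseudocount 0.5) that also held F1 treatment and dose, with no test. With date as a block the edgeR value was -0.67 (adjusted p 0.16). With the 8 control and 9 treated F0 sires as the units it was -0.35 (two-sided exact permutation p 0.42). That is a difference between sire means of log2 CPM (pseudocount 0.5) adjusted for dose alone, so its size is not comparable with the edgeR values.

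Each dose alone gave Lcn2 -0.69 in vehicle, -0.66 at low and -1.05 at high dose, none called. Without date 1, 2 or 3 the F0 value was -0.96, -0.33 and -0.80, none called. Leaving out 1 of 83 livers at a time gave -0.91 to -0.64, and the call was lost without cohort A high replicate 1, 2 or 4, low replicate 4 or vehicle replicate 4, cohort B high replicate 7 or low replicate 5, cohort C high replicate 7 or low replicate 3, or cohort D high replicate 9.

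Ccl2 was higher in grandsons of treated males by 0.67 ± 0.27 (log2, edgeR adjusted p 0.14), not called, and its range was 0.122 to 8.94 CPM without and 0.187 to 44.3 with a treated grandsire. DESeq2 called it (adjusted p 0.084), and so did edgeR without cohort A low replicate 7, cohort B high replicate 1 or 5, or cohort B low replicate 2. Without cohort D high replicate 7 it was 0.34. With the F0 sire as the unit, on the scale given for Lcn2, it was 0.28 (two-sided exact permutation p 0.17). Within dates, by the linear fit given for Lcn2, it was -0.09, 0.33, 0.15 and 0.62. Il1b (0.16 ± 0.12), Spp1 (-0.04 ± 0.20) and Cd68 (-0.12 ± 0.07) did not pass for F0. The F1 effect with the smallest p was that of Spp1, 0.53 ± 0.20 (p 0.0088, edgeR adjusted p 0.34), and the other 4 were between -0.13 and 0.07.

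The dose effects were also taken within necropsy dates. Within each of the 4 dates high minus vehicle was 4.09 to 5.20 for Spp1, 3.74 to 5.41 for Lcn2, 1.42 to 2.42 for Ccl2 and 0.82 to 1.23 for Cd68 (mean log2 CPM, pseudocount 0.5, 12 to 24 livers per date). For Il1b it was -0.59 to 0.41.

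Lcn2 was far below the rest of its group in 3 males. Cohort A low replicate 10 had 2 Lcn2 counts (0.0480 CPM, upper limit 0.174 by the exact 95% Poisson interval), where the other livers of its group had 0.83 to 28.3 CPM. Cohort A high replicate 10 had 24 counts (0.440 CPM, upper limit 0.655), where the others had 44.0 to 229. These 2 males were littermates and the only livers sequenced from that litter.

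The third, cohort C vehicle replicate 4, had 1 count in liver (0.0349 CPM, upper limit 0.195) and 2 in kidney (0.0781 CPM, upper limit 0.282). The other 26 kidneys held 1.12 to 8.10 CPM, so the low value stood in both organs of this male. Its littermates, cohort C low replicates 3 and 4, had 1.01 and 4.01 CPM. The same male had the highest Il1b of any liver (13.1 CPM) and the highest Ccl2 of the vehicle livers (2.24 CPM), while its Cd68 was 25.6 and its Spp1 1.26 CPM. These 3 males were picked for their low Lcn2 after the values were seen, so Lcn2 fits without them are not an independent check. Without them the Lcn2 rise at high dose was 5.85 in cohort A and 5.52 in cohort C. The low-dose value of cohort D, which holds none of the 3, was then called (2.00, edgeR adjusted p 0.062). The F0 value was then -0.85 (edgeR adjusted p 0.026). A cause of the low values was not tested, and these intervals cover counting error only.

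**Figure D3:**
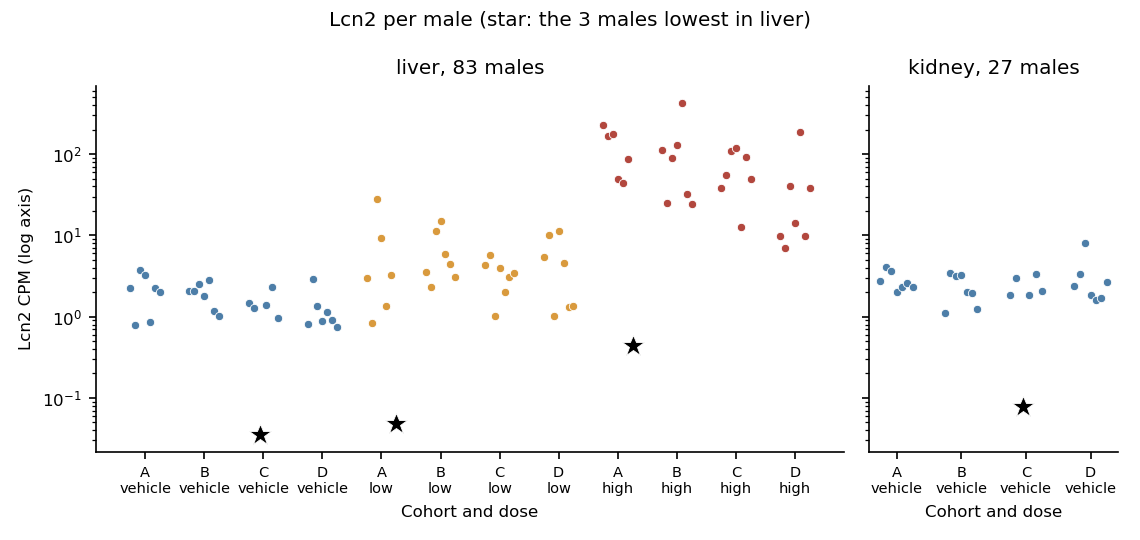
Lcn2 in every male (CPM with TMM on a log axis) in livers by dose and in kidneys, with stars for the 3 males lowest in liver. The 2 littermates of cohort A and the cohort C vehicle male sat below all others of their groups, and the latter did so in kidney too.

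Kidney levels were measured in the same 27 vehicle males, which received no CCl4 themselves. In TPM, Spp1 was 264.5 ± 124 (SD, n = 27) in kidney against 1.78 ± 0.882 in liver and was higher in kidney in 27 of 27 males. Cd68 was 5.49 ± 1.5 against 22.4 ± 4.22 and lower in kidney in 27 of 27, as was Il1b, at 1.17 ± 0.476 against 2.78 ± 0.935. Ccl2 was 2.63 ± 1.47 against 0.966 ± 0.594 TPM, higher in kidney in 25 of 27, and Lcn2 was 3.89 ± 2.44 against 2.30 ± 1.20, higher in 23 of 27. The kidney order was thus Spp1, Cd68, Lcn2, Ccl2 and Il1b, and each neighbouring pair below Spp1 overlapped in range. The mean Spp1 of vehicle kidney was above that of high-dose liver (111 TPM), a comparison across organs and treatments that was not tested.

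In the paired fit over 54 libraries with the animal as a block, 3 of the 5 genes were called where 46.6% of 19292 genes were. Spp1 was higher in kidney by 6.39 ± 0.19 (log2), Cd68 lower by 2.85 (log2 fold change -2.85 ± 0.08) and Il1b lower (-2.11 ± 0.12), with edgeR adjusted p of 2.2e-24, 4.4e-25 and 5.6e-17. Ccl2 was higher by 0.70 ± 0.20 (adjusted p 0.0020), under the size threshold, and Lcn2 gave -0.04 ± 0.15 (adjusted p 0.79). Library totals moved the median of all genes by 0.95 and the share of calls higher in kidney from 59.3% to 83.1%. Ccl2 was then 1.65 and called, and Lcn2 turned to 0.91 higher in kidney (adjusted p 3.2e-06), as it did in TPM (0.73). A direction for Lcn2 between the organs is therefore not given by these data, and organ and preparation run cannot be told apart. Of the few organ markers with an identifier, the podocyte gene Nphs1 was 17.1 TPM in kidney and 0.323 in liver, and the Kupffer cell gene Cd5l 55.1 TPM in liver and 8.6e-04 in kidney. The tubular injury gene Havcr1 did not pass between the organs, at 0.876 TPM in kidney and 0.591 in liver (log2 fold change -0.30, edgeR adjusted p 0.32).

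**Figure D4:**
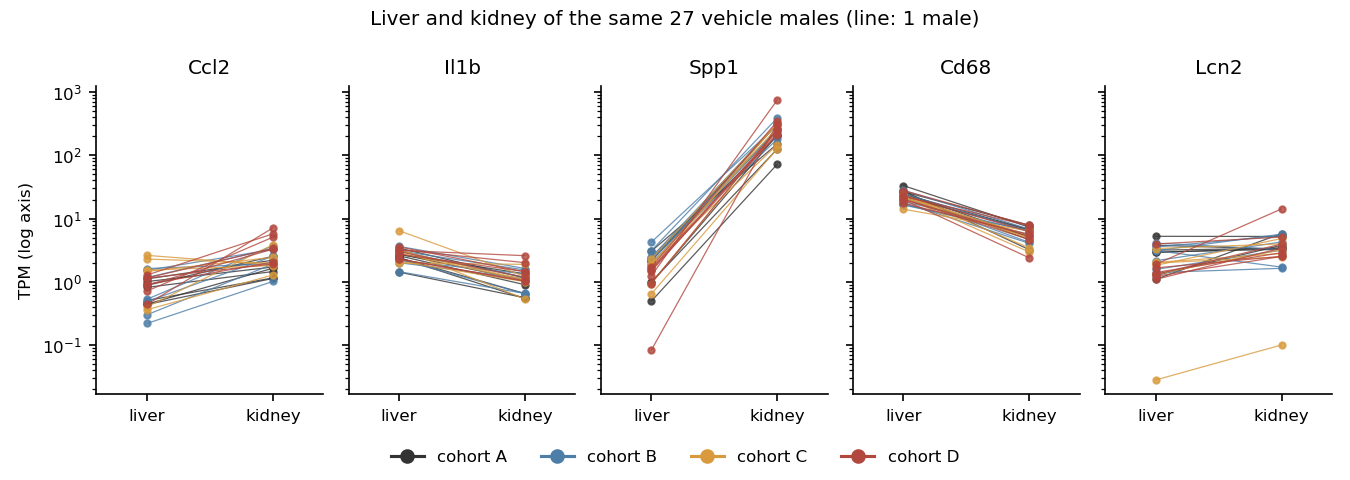
TPM of the 5 genes in liver and kidney of the 27 vehicle males (log axis), with 1 line per male. Spp1 lines all climbed towards kidney, Cd68 and Il1b lines all fell, and those of Ccl2 and Lcn2 mostly climbed.

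Kidney levels were then compared by ancestry. Spp1 was 91.1 to 368 CPM (median 210) in cohort A, 196 to 396 (308) in B, 166 to 389 (296) in C and 221 to 702 (335) in D. Ccl2 was 0.602 to 1.4 CPM (0.880), 0.475 to 1.69 (1.18), 0.720 to 1.82 (1.16) and 0.949 to 3.64 (1.91). The cohorts overlapped for both genes, with cohort D having the highest median.

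Kidney Lcn2 was 2.03 to 4.04 CPM (median 2.57), 1.12 to 3.47 (2.02), 0.0781 to 3.39 (1.96) and 1.58 to 8.10 (2.41) in cohorts A to D. Cd68 was 2.68 to 7.83 and Il1b 0.553 to 2.59 CPM over all 27 kidneys. No member was called for F0 treatment, where 0.0109% of genes tested were called (2 genes by edgeR, against 77 by DESeq2). None was called for F1 treatment either, where 0% were called (0 genes by edgeR and by DESeq2, 1225 by edgeR at an unadjusted p under 0.05). Ccl2 had the smallest p in each, 0.56 ± 0.20 for F0 (p 0.0095, edgeR adjusted p 0.45) and 0.62 ± 0.20 for F1 (p 0.0047, edgeR adjusted p 0.61).

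Between livers of 1 group, the 5 genes varied together only in part. After subtracting group means, Pearson's r over the 83 livers was 0.54 for Ccl2 with Il1b, 0.34 for Spp1 with Cd68 and 0.34 for Ccl2 with Spp1, and the other 7 pairs lay between -0.10 and 0.23. These livers share scaling and litters, and the values are descriptions. Over 12249 candidate genes, the 3 most alike each member had r of 0.78 to 0.81 for Ccl2, 0.64 to 0.67 for Il1b, 0.55 to 0.57 for Spp1, 0.75 to 0.79 for Cd68 and 0.63 to 0.65 for Lcn2, and none of them has a symbol here. Symbols here come from the study's gene table, chosen on these samples as correlated with ancestral treatment, not from a general annotation. The genes named next are therefore not the most alike of all. They are the most alike among the 1556 candidates with such a symbol, a restriction made after the values were seen. For Cd68 they were Ctsd (0.71), Lgmn (0.68) and C1qb (0.60), encoding 2 lysosomal proteases and a complement chain, and for Spp1 Atp6v1b2, Ctsz and Lgmn (0.48 to 0.49), which encode a proton pump subunit and lysosomal proteases. For Ccl2 they were Eif2b3, Apex1 and Ccdc86 (0.63 to 0.66), for Il1b Rras2, Rsl24d1 and Utp23 (0.49 to 0.62) and for Lcn2 Mgat4a, Pla1a and Marcks (0.56 to 0.58).

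Other genes of these pathways could be followed only in small part, since 11 of 111 listed genes had an identifier paired with a symbol. The lists of chemokines, interleukin 1 genes, osteopontin receptors, neutrophil and biliary genes had none, and every list was under 80% covered, so a count over any list is void. Those 11 symbols came from the study's gene table, chosen on these samples. Of the general macrophage genes Cd14, Adgre1 and Ctss and the Kupffer cell genes Cd163, Cd5l and C1qb, none was called at either dose in any cohort, every size being under 1. By adjusted p alone (edgeR), Ctss, C1qb, Adgre1 and Cd14 passed at high dose in at least 1 cohort, with lowest values of 2.6e-06, 2.8e-04, 0.0024 and 0.093, and Cd163 and Cd5l passed in none. At low dose Ctss (lowest 0.0080) and C1qb (0.073) passed by adjusted p. Their mean log2 fold changes at high dose were 0.24, 0.39, 0.63, 0.02, -0.00 and 0.39, against 1.16 for Cd68. In TPM, which does not align most genes, Ctss was 52.0 ± 12.4 in vehicle and 126 ± 30.4 at high dose and Cd14 29.6 ± 8.65 and 54.8 ± 24.4.

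Cd4, carried by T cells and by rat macrophages, was called higher at high dose in 3 of 4 cohorts (mean log2 fold change 1.15). The acute phase gene A2m, whose row carries a second symbol and is uncertain, was called lower at high dose in 4 of 4 cohorts, from 6.39 ± 2.68 TPM in vehicle to 0.314 ± 1.37. Socs3, the feedback inhibitor of cytokine signalling, was not called at high dose (mean log2 fold change -0.33, from -0.87 to 0.16), although its lowest adjusted p over the cohorts was 0.031 (edgeR). The part of any cell type in the rise of the 5 genes was not tested.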

How the data were processed

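Poly(A) RNA of 83 livers and 27 kidneys was sequenced as stranded mRNA libraries. Per the labels and methods, the authors quantified transcripts with Salmon 0.14.0 and summed them to genes in R 3.5.0, and they deposited estimated counts, whole numbers in every cell of both tables, together with an average transcript length per gene and library. DESeq2 was the authors' test. No column of per-sample values was left unmapped, and no comparison of the authors was used.

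Here the deposited counts were tested in edgeR 4.0.16 (R 4.3.3), with TMM factors, genes whose summed count exceeded 10 in at least 1 group, the quasi-likelihood F test and Benjamini-Hochberg adjustment over all genes tested. A dose or organ comparison counted as called with an adjusted p under 0.1 when the log2 fold change also exceeded 1 in size, ancestry effects and interactions at an adjusted p under 0.1. The standard error is the log2 fold change over the square root of F. TPM came from the deposited counts and lengths. The groups are those of the labels, and necropsy dates, litters and F0 sires come from the study's supplement. The organ fit kept the animal as a block, since kidney and liver came from the same males.

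Replicate numbers of 1 cohort mostly mark litters. In 18 of 27 number sets all males shared a litter, and 68 pairs of littermates at different doses had a median correlation of residuals of 0.13, against -0.01 for 506 other pairs of a cohort. Litter was therefore used as a replicate block in an alternative fit. DESeq2 1.42.0 was a further alternative. The scripts were tested on simulated data.

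The 5 genes and the gene lists were chosen with earlier results of these data known. The text names the 5 genes in full, of the pathway lists the 2 with the largest mean change at high dose and those with a mean count over 1000 that did not pass, and the 3 genes most alike each of the 5. Socs3, Adgre1, Cd4, Nphs1, Havcr1 and the restriction to genes with a symbol were added after the values were seen. RNA isolation dates per animal are not given in the sources used here. Estimated counts behind a level were lowest in vehicle livers, where Lcn2, Ccl2 and Spp1 went down to 1, 5 and 3 counts in a library, and their values there are the least precise.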

Additional observations from a re-analysis of the deposited data

Results flagged for a closer look

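A liver or kidney was picked out where its gap to the nearest other animal of its group was large against the whole range of the group (Dixon's test at 95%). Over 80 sets of a gene and a group, 21 were picked out, where chance gives about 1 in 20, and each was the highest of its group on a CPM scale, on which high values lie farther apart than low ones. For Ccl2 these were cohort A low replicate 7 (6.94 CPM), cohort B low replicate 2 (3.79), cohort C high replicate 4 (8.44) and cohort D high replicate 7 (44.3). For Il1b they were cohort A high replicate 7 (8.47), cohort B high replicate 5 (7.64), cohort C high replicate 4 (5.55) and cohort C vehicle replicate 4 (13.1). For Spp1 they were cohort A high replicate 5 (189.6) and low replicate 4 (120.3), cohort B high replicate 1 (306) and vehicle replicate 7 (4.92), and the kidney of cohort D replicate 4 (702). For Cd68 they were cohort A low replicate 4 (71.7), cohort D low replicate 4 (49.3) and cohort D vehicle replicate 4 (29.3). For Lcn2 they were cohort A low replicate 4 (28.3), cohort B high replicate 7 (429), cohort D high replicate 7 (185), cohort D vehicle replicate 2 (2.93) and the kidney of cohort D replicate 4 (8.10).

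Several animals recur. Cohort A low replicate 4 was picked out for Spp1, Cd68 and Lcn2, cohort C high replicate 4 for Ccl2 and Il1b, cohort D high replicate 7 for Ccl2 and Lcn2, and cohort D vehicle replicate 4 for Cd68 in liver and for Spp1 and Lcn2 in kidney. Cohort D high replicate 7 was also the highest of its group for Spp1 (284 CPM) and Il1b (4.88 CPM), without being picked out there. A cause was not tested.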

How the results depend on the processing

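At high dose against vehicle, Spp1 and Lcn2 were called in every cohort under every alternative run. Counts of the 5 genes called changed as follows, changes of any size included. Low dose, cohort A, went from 2 to 1 without any 1 of the 4 necropsy dates and with litter as a replicate block. Cohort B went from 1 to 2 by library totals or without date 1 and to 3 with the litter block. Cohort C went from 1 to 2 by DESeq2. Cohort D went from 2 to 1 with DESeq2's size factors, with no filter, with length offsets and without date 1, 2 or 4, and to 3 (Lcn2 gained) by library totals, by DESeq2, with the litter block and without the 3 males low in Lcn2. High dose went from 3 to 4 in cohort A by library totals, and in cohort C from 4 to 2 without date 1 and to 3 without date 4 or with the litter block. High against low dose went from 1 to 2 in cohort A without date 3, from 2 to 4 in cohort B by library totals and to 1 there with date as a block, without date 1 or with the litter block, and in cohort D from 2 to 1 without date 3 and to 3 by library totals. Without date 2 the cohort B count stayed 2, with Spp1 gained and Ccl2 lost. The F0 effect in liver went from 1 to 0 with no filter, by library totals, with date as a block, without date 1, 2 or 3 and in each dose alone, and to 2 by DESeq2. Kidney against liver went from 3 to 4 by library totals (Ccl2 gained). Leaving out 1 library at a time gave 1 to 2 for low dose in cohorts A and B and 1 to 3 in D, 3 to 4 for high dose in cohort C, 1 to 2 for high against low in cohorts A, B and D, and 0 to 2 for F0. Beyond these changes the litter block changed no call of the 5 genes, and the organ fit with no replicate block called 3, as with the animal as a block.

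For Lcn2 in kidney against liver the direction turned by library totals (0.91) and in TPM (0.73, no test). Apart from these, 64 of 1230 alternative values of single genes changed sign with neither value past the threshold, 35 of them for Il1b. Library totals, the leave-one-out fits for F0 and F1, the DESeq2 likelihood ratio test of the interactions and the omission of the 3 males low in Lcn2 were chosen after seeing the data.

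Counts over all genes moved by over 1.5 times as follows. F0 in liver: 1697 genes, 1062 by library totals, 1114 without date 1, 715 without date 4, and 285, 39 and 0 in vehicle, low-dose and high-dose males alone. F1 in liver: 38 genes, 19 with a mean count over 10, 8, 141 and 3 without date 1, 2 and 4, 66, 1 and 0 in each dose alone, 20 without the 3 males and 24 by DESeq2. F0 in kidney: 2 genes, 0 with no filter, by library totals and without date 1, 2 or 4, 1 with length offsets, 7 with date as a block, 5 without the male low in Lcn2 and 77 by DESeq2. By library totals, high against low moved from 2253 to 3896 in cohort A, 3134 to 4874 in B and 2136 to 3945 in D, high dose in A from 4125 to 6758, and low dose in A from 704 to 1067. Without date 1, high against low in A gave 1341, low dose in C 508 (of 848) and in D 477 (of 807). Without date 2, high against low in C gave 1561 (of 2376) and low dose 313 in A and 375 in C. Low dose gave 552 in C without date 3 and 377 in B (of 694) without date 4. The litter block gave 1391 for high against low and 461 for low dose in C. These causes were not tested.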
